A study of Mus musculus with 6 samples.

Results

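The NLRP3 inflammasome is a protein platform of innate immunity that Txnip, the thioredoxin-interacting protein, has been reported to bind. It was followed here through 10 of its transcripts in mouse hearts with a mutant Txnip. The 10 genes were the sensor Nlrp3, its partner kinase Nek7, the adaptor Pycard, the caspases Casp1 and Casp4, the pore-forming Gsdmd, the cytokines Il1b and Il18, the decoy Il18bp and the receptor Il1r1. They were taken by name. No measured value enters that rule, although the set was drawn up with earlier results of these data known. Each of the 10 names matched 1 of the 49315 Ensembl genes in the count table, and 12777 genes of the table had enough counts to be tested. Bulk RNA sequencing covered 6 hearts of C57BL/6 mice, 3 of conditional Txnip C247S knock-in mice and 3 of wild-type (Txnip WT) mice. MerCreMer, a Cre recombinase that tamoxifen switches on, and 4-hydroxytamoxifen are named for the hearts of both genotypes. The labels do not say which promoter drove MerCreMer, nor whether the wild-type mice carried it, and they give no sex, age, litter or batch.

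In the textbook scheme, an inflammasome is built in steps. A priming signal through Toll-like receptors and NF-kB raises the transcripts of Nlrp3 and Il1b, and a later signal makes the Nlrp3 protein assemble with Nek7 and Pycard. Casp1 then cuts the Il1b and Il18 precursors as well as Gsdmd, whose fragments open pores in the cell membrane. Assembly and cutting happen at the protein level, so transcript counts cannot show whether the inflammasome was active. In the heart the pathway is known mostly from macrophages and fibroblasts.

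Total counts ran from 14146048 to 15620476 per library, and 3 counts, taken as the floor of detection in a library, equalled 0.195 to 0.208 CPM (counts scaled to library size with TMM factors). Txnip stood at 438, 391 and 429 CPM in the knock-in hearts, against 724, 791 and 741 CPM in the wild-type hearts, so the groups of libraries were separated at the targeted gene. Counts per gene carry no information on the replaced residue. Summed markers of cardiomyocytes, 8 genes, gave 73286 to 78308 CPM in the knock-in and 66683 to 68831 CPM in the wild-type hearts. Of these genes Myl2 averaged 15409 CPM in the knock-in and 10525 CPM in the wild-type hearts. Myh6 was about level, at 19741 and 19374 CPM in knock-in and wild-type hearts. Their log2 fold changes were positive in 7 of the 8 and negative in 1, with a median of 0.10. Erythroid markers summed to 1495 to 1965 CPM in the knock-in hearts, against 487 to 665 CPM in the wild-type hearts. Summed macrophage and monocyte markers, 14 genes of which Ly6c2 had 3 to 6 counts in the knock-in hearts and 0 to 2 counts in the wild-type hearts, gave 288 to 315 CPM in the knock-in hearts against 381 to 442 CPM in the wild-type hearts. Summed neutrophil markers, 8 genes, gave 9.20 to 18.7 CPM in the knock-in against 4.09 to 8.45 CPM in the wild-type hearts. S100a8 and S100a9 averaged 4.09 and 7.22 CPM in the knock-in hearts, against 1.75 and 2.25 CPM in the wild-type hearts. Ngp had 10 to 15 counts in the knock-in hearts and 0 to 2 counts in the wild-type hearts. Csf3r was about level, at 0.814 and 0.850 CPM in knock-in and wild-type hearts, and Ly6g had 0 or 1 counts in every heart. Smooth muscle and pericyte markers summed to 570 to 588 CPM in the knock-in hearts, against 662 to 727 CPM in the wild-type hearts. Of the 8 genes in that sum, Acta2 averaged 80.1 CPM in the knock-in and 189 CPM in the wild-type hearts. Log2 fold changes of the 8 genes were positive in 4 and negative in 4, with a median of 0.0036. None of these 5 sums overlapped between the genotypes. Among single genes tested, 16.1% had groups that did not overlap. The sums for fibroblasts (645 to 795 CPM in knock-in, 704 to 734 CPM in wild-type hearts) and for endothelial cells did overlap. So did that for lymphocytes, at 1.43 to 2.37 CPM in knock-in and 0.900 to 1.45 CPM in wild-type hearts. In tissue RNA fewer cells of a type and less RNA per cell cannot be told apart. The part of the marker sums in the values of the inflammasome genes was not tested.

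The 10 transcripts fell into 3 tiers of abundance. Nek7 was well expressed, Pycard, Il18bp, Gsdmd, Il1r1, Casp1 and Casp4 were low but counted at least 19 times in every heart, and Nlrp3, Il1b and Il18 lay at or near the floor. Per kilobase of exon, Nek7 averaged 11.9 ± 1.69 CPM in knock-in and 10.7 ± 1.89 CPM in wild-type hearts (SD, n = 3 each). That level was above those of 79.8% of the tested genes. Next in order came Il18bp at 3.07 ± 0.385 and 2.50 ± 0.516 CPM per kilobase and Pycard at 2.41 ± 0.151 and 2.69 ± 0.388 CPM per kilobase in knock-in and wild-type hearts. Gsdmd, Il1r1 and Casp1 followed, with ranges over the 6 hearts of 1.40 to 2.27, 1.21 to 1.73 and 0.971 to 1.56 CPM per kilobase. From Il18bp to Casp1 each range overlapped the next. Compared within hearts, Il18bp was above Pycard in 3 of 6 hearts and Gsdmd above Il1r1 in 5 of 6, whereas Pycard was above Gsdmd and Il1r1 above Casp1 in 6 of 6. Casp4 ranged from 0.354 to 0.541 CPM per kilobase, below Casp1 in every heart. With the longest protein-coding transcript as its length, however, Casp4 averaged 1.14 CPM per kilobase, close to Casp1 at 1.21. Il1b, Il18 and Nlrp3 came last with overlapping ranges of 0.0726 to 0.725, 0 to 0.252 and 0.0162 to 0.188 CPM per kilobase. The highest of these, 0.725 for Il1b in knock-in replicate 2, lay above the range of Casp4. The level of Nlrp3 exceeded that of 0.885% of the tested genes. Nlrp3 had too few counts to be among them, so a place near the bottom follows in part from the low-count filter.

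**Figure D1:**
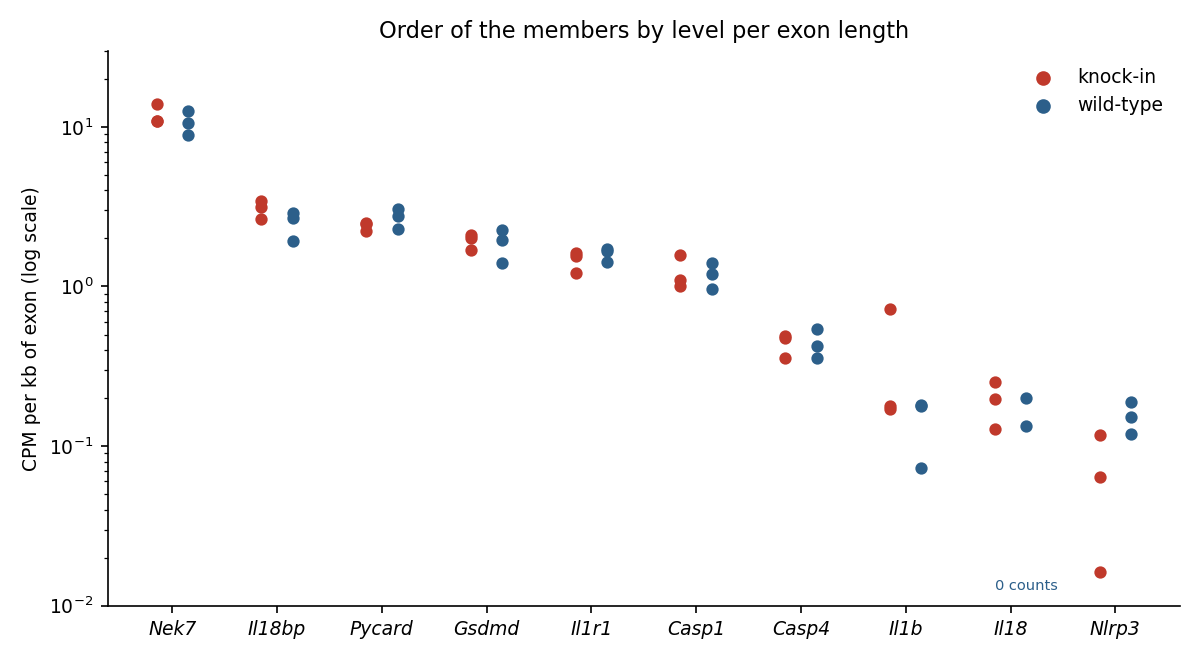
Level of each of the 10 transcripts in CPM per kilobase of exon, on a log scale, with 1 point per heart (knock-in left, wild-type right of each pair). Nek7 lies above all others in each heart, and Il1b, Il18 and Nlrp3 have the lowest means, with 1 knock-in heart above Casp4 for Il1b; the wild-type heart with 0 counts of Il18 is marked in words.

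In the comparison of genotypes, no transcript of the set was shown to change. Of the 7 that could be tested, 0 were called by edgeR's quasi-likelihood test at a Benjamini-Hochberg adjusted p under 0.05, 0 by DESeq2 (1% of all tested genes called), and 0 had an unadjusted p under 0.05. Over all tested genes edgeR called 0.297% (0.11% higher and 0.188% lower), and 9.97% had an unadjusted p under 0.05. Log2 fold changes, knock-in over wild-type, were positive in 5 and negative in 2 of the 7, with a median of 0.03 against −0.0068 over all tested genes. The 95% interval of each of the 7 lay inside a 2-fold change either way, as did those of 11005 of all 12777 tested genes. No tested member had groups that did not overlap, while 16.1% of all tested genes did. The 3 transcripts with the lowest counts did not pass the filter on low counts and are described by their counts.

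**Figure D2:**
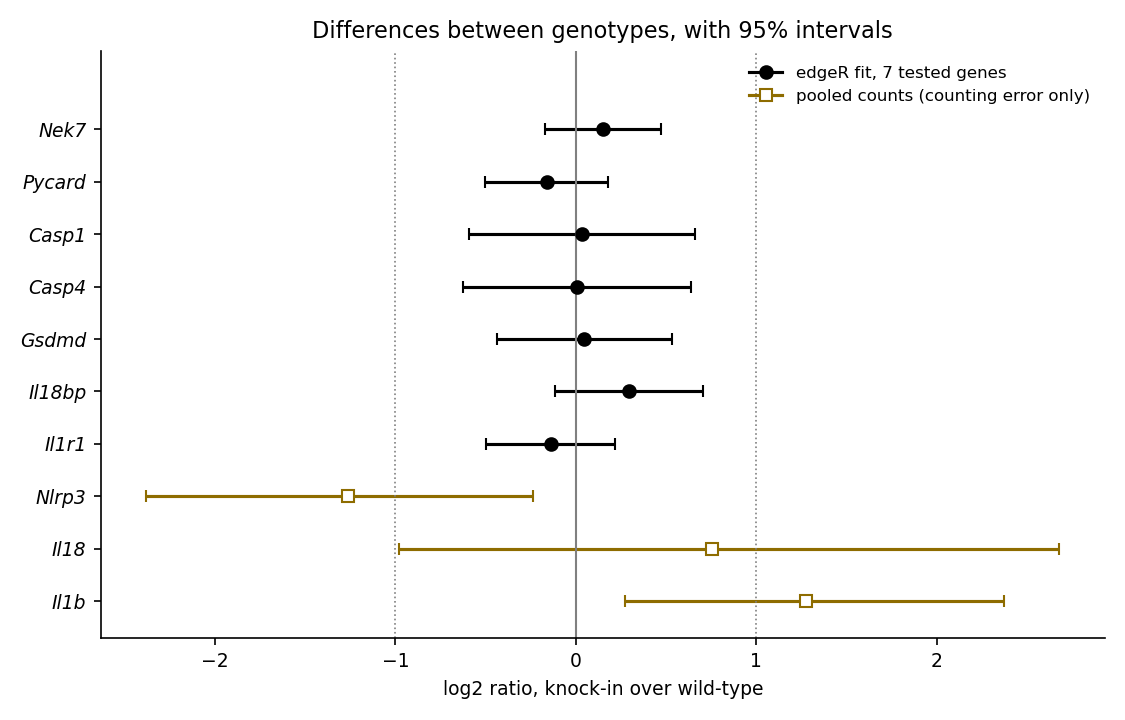
Log2 ratio of knock-in over wild-type for the 10 transcripts with 95% intervals, and dotted lines at a 2-fold change. The 7 tested genes (black) have intervals that include 0 and end inside the dotted lines, whereas the pooled count ratios of Nlrp3, Il18 and Il1b (open squares, counting error only) have wide intervals.

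The sensor Nlrp3 (ENSMUSG00000032691, chromosome 11, 59541568 to 59566956, plus strand, GRCm38), which assembles the complex, was counted 4, 1 and 7 times in the knock-in hearts and 9, 7 and 11 times in the wild-type hearts. As CPM these were 0.260, 0.0659 and 0.477 in knock-in hearts and 0.613, 0.485 and 0.761 in wild-type hearts. The groups did not overlap, but the highest knock-in and the lowest wild-type heart each had 7 counts. The macrophage marker sum was also lower in each knock-in heart, and its part in this was not tested. Among genes with 20 to 60 counts over all hearts, 13.8% had groups that did not overlap. Pooled over hearts, 12 counts against 27 gave a ratio of 0.416 (95% exact binomial interval 0.192 to 0.850, counting error only). The CPM differed with p = 0.1 in an exact two-sided permutation test, which cannot go lower with 3 against 3, and edgeR without a filter gave an adjusted p of 0.582. The interval reached 1.20 without knock-in replicate 2 (ratio 0.577) and 1.05 without wild-type replicate 3 (ratio 0.465). A fall of Nlrp3 was therefore not shown at this depth.

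Nek7 (ENSMUSG00000026393, chromosome 1, 138482875 to 138620141, minus strand), a mitotic kinase that also binds Nlrp3 and is required for its activation, had 80.9, 102 and 80.0 CPM in the knock-in hearts and 65.6, 78.1 and 93.4 CPM in the wild-type hearts. The groups overlapped, since wild-type replicate 3 lay above the 2 lower knock-in hearts. Its log2 fold change was estimated at 0.15 ± 0.15 (SE; edgeR adjusted p = 0.808), with a 95% interval of −0.17 to 0.47. Over all 6 hearts there were 7404 counts of Nek7 and 39 of Nlrp3, a ratio of 104 per kilobase of exon.

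Pycard (ENSMUSG00000030793, chromosome 7, 127989708 to 127993867, minus strand) encodes ASC, the adaptor that links Nlrp3 to Casp1. It stood at 9.56, 8.50 and 9.41 CPM in the knock-in hearts, against 10.5, 11.6 and 8.65 CPM in the wild-type hearts. The lowest wild-type heart lay among the knock-in values, with a log2 fold change of −0.16 ± 0.15 (SE; edgeR adjusted p = 0.805; 95% interval −0.50 to 0.18). The annotated protein-coding transcripts of Pycard run from 493 to 3800 bases, so its level per length depends on which of them the reads came from. Its exons share 485 bases with Gm45205 on the opposite strand, which had 0 or 1 counts per library.

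The caspases lie side by side on chromosome 9, with 1563 bases between the end of Casp1 and the start of Casp4, and their longest transcripts shared no 31-base word with each other or with any other gene. Casp1 (ENSMUSG00000025888, 5298517 to 5307265, plus strand), the protease that matures the cytokines, had 36, 23 and 24 counts in the knock-in hearts and 31, 26 and 21 counts in the wild-type hearts. Casp4 (ENSMUSG00000033538, 5308828 to 5336783, plus strand), the mouse gene for caspase-11, which senses bacterial lipopolysaccharide inside cells, had 28, 20 and 26 counts in the knock-in hearts and 23, 29 and 19 counts in the wild-type hearts. In both genes the groups overlapped almost fully. The log2 fold changes were 0.03 ± 0.29 for Casp1 (SE; edgeR adjusted p = 0.990) and 0.01 ± 0.29 for Casp4 (SE; edgeR adjusted p = 0.998). Their 95% intervals, −0.59 to 0.66 and −0.63 to 0.64, were the widest of the 7 tested genes. A change of 1.5-fold in either caspase would thus lie within the error, and the sign of both values turned when the libraries were scaled by their size alone.

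Gsdmd (ENSMUSG00000022575, chromosome 15, 75862327 to 75867408, plus strand), the gasdermin that forms the pores of pyroptosis, was at 4.81, 4.02 and 4.98 CPM in the knock-in hearts, against 5.39, 4.64 and 3.32 CPM in the wild-type hearts. All 3 knock-in values lay inside the range of the wild-type hearts. Its log2 fold change was estimated at 0.05 ± 0.22 (SE; edgeR adjusted p = 0.978), with a 95% interval of −0.44 to 0.53.

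**Figure D3:**
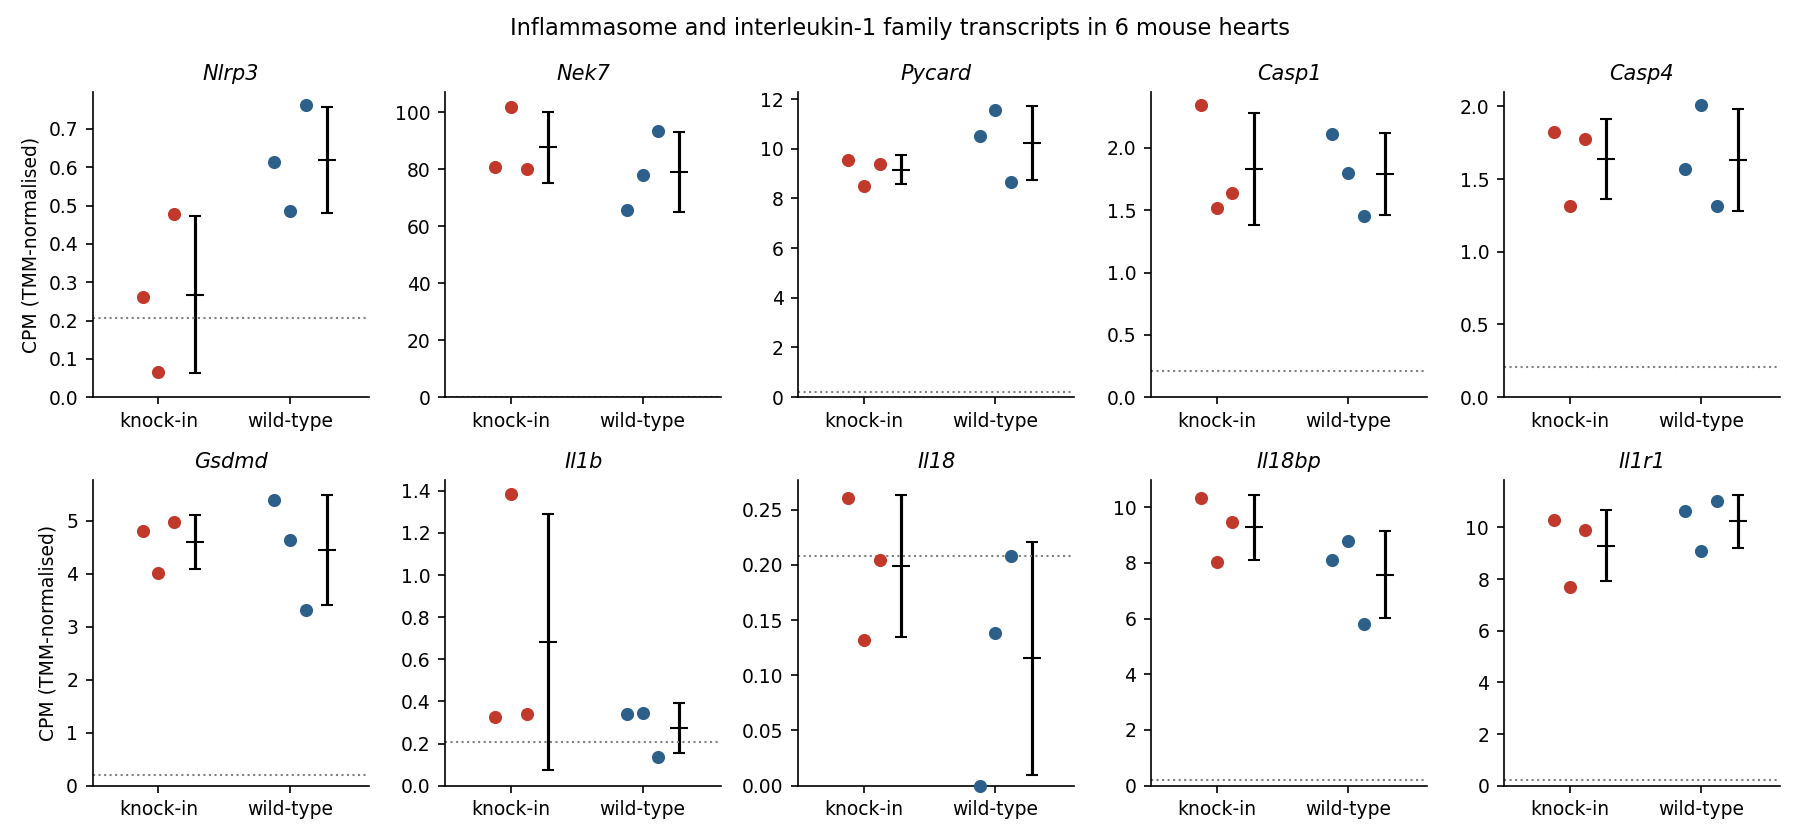
TMM-normalised CPM of the 10 transcripts in each heart (points; knock-in red, wild-type blue) with the mean and SD of 3 hearts beside them, on axes that start at 0. The dotted line is the floor of 3 counts, 0.208 CPM in the library where it is highest; 1 knock-in heart stands apart for Il1b, and the groups overlap in all panels except that of Nlrp3.

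Il1b (ENSMUSG00000027398, chromosome 2, 129364570 to 129371139, minus strand), the fever cytokine that inflammasomes release, had 5, 21 and 5 counts in the knock-in hearts and 5, 5 and 2 counts in the wild-type hearts. Apart from knock-in replicate 2, the hearts of both genotypes thus had 2 to 5 counts. The pooled ratio of 31 to 12 counts was 2.42 (95% exact binomial interval 1.21 to 5.17, counting error only), but 1.18 (0.457 to 2.98) without that heart. For the CPM, p was 0.6 in an exact two-sided permutation test, and edgeR without a filter an adjusted p of 0.460. In the same heart the summed neutrophil markers stood at 18.7 CPM, close to the 17.1 CPM of knock-in replicate 1, which had 5 counts of Il1b. The part of these markers in the Il1b counts was not tested. Il1bos, an antisense gene that shares 25 exon bases with Il1b, had 0 or 1 counts.

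Il18 (ENSMUSG00000039217, chromosome 9, 50554827 to 50581840, plus strand), the cytokine that drives interferon-gamma production, had 4, 2 and 3 counts in the knock-in hearts and 0, 2 and 3 counts in the wild-type hearts. It exceeded the floor of 3 counts in 1 of 6 libraries, and the wild-type heart with 0 counts allows a level of up to 0.205 CPM. The pooled ratio of 9 to 5 counts was 1.69, with a 95% exact interval of 0.507 to 6.40, so a difference was not detectable at this depth. Il18bp (ENSMUSG00000070427, chromosome 7, 102014885 to 102018690, minus strand), a secreted decoy that binds and neutralises the Il18 protein, was far more abundant. It had 10.3, 8.04 and 9.47 CPM in the knock-in hearts, against 8.11, 8.80 and 5.81 CPM in the wild-type hearts. Over all 6 hearts the decoy had 750 counts and the cytokine 14, a ratio of 18.3 per kilobase of exon.

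Of the 7 tested transcripts Il18bp had the log2 fold change farthest from 0, 0.29 ± 0.19 (SE; edgeR adjusted p = 0.671; 95% interval −0.12 to 0.70). Its groups overlapped, with wild-type replicate 3 the lowest heart, and without that heart the value was 0.14. It overlaps Numa1, a mitotic spindle gene with 829 to 921 counts per library, by 80 exon bases on the opposite strand. Without knowledge of the strand setting, reads in those bases cannot be told apart. By the spread over hearts it was also the most variable of the members with at least 1 CPM. The genes whose centred log2 CPM lay closest to it over the 6 hearts were Trib1, Lage3 and Smyd2, with root mean square differences of 0.03, 0.04 and 0.05 on the log2 scale. Each of them, like Il18bp, was lowest in wild-type replicate 3 and highest in knock-in replicate 1. No test was made of this likeness.

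Il1r1 (ENSMUSG00000026072, chromosome 1, 40225080 to 40317257, plus strand), the signalling receptor for Il1a and Il1b, had 10.3, 7.71 and 9.88 CPM in the knock-in hearts, against 10.6, 9.07 and 11.0 CPM in the wild-type hearts. The groups overlapped, with a log2 fold change of −0.14 ± 0.16 (SE; edgeR adjusted p = 0.851; 95% interval −0.50 to 0.22). Over the 6 hearts the receptor had 866 counts and its ligand Il1b 43. The receptor's transcript was thus present in hearts with little of the ligand's transcript, in both genotypes.

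Hearts of both genotypes stood at the extremes. Wild-type replicate 3 had the lowest CPM of 5 of the 10 members (Casp1, Casp4, Gsdmd, Il1b and Il18bp) and the highest of 2 (Nlrp3 and Il1r1). Knock-in replicate 2 had the lowest of 3 (Nlrp3, Pycard and Il1r1) and the highest of 2 (Nek7 and Il1b). Both hearts stood apart over all genes too. The chi-square of counts per degree of freedom was 15.0 to 27.0 in pairs of the same genotype that held 1 of them, against 7.45 for the other knock-in pair and 7.16 for the other wild-type pair.

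Promoter sequence at RefSeq starts was at hand for 9 of the 10 genes, all but Gsdmd. It came as windows of 250 bases before and 50 bases after a transcript start (GRCm38.p6). Nek7 had 23 CG dinucleotides in its 300-base window, and the windows of Nlrp3, Il1b, Il18, Casp1, Casp4, Pycard and Il18bp had 1 to 5. Il1r1 had 5 at 1 start and 14 at another, and the median over 32851 mouse windows was 7 (quartiles 3 and 20). The bases upstream of the start are given for the 3 transcripts at or near the floor and for Casp4, whose windows held matches to the NF-kB consensus or to TATAAA. One start of Il1r1 held an NF-kB match too, and the windows of the other members held neither. Both strands were searched and overlapping matches were counted as 1. Capitals mark matches to the NF-kB consensus in Nlrp3 and Casp4 and to TATAAA in Il1b and, on the opposite strand, in Il18.
Nlrp3, chr11:59541319-59541567, plus strand: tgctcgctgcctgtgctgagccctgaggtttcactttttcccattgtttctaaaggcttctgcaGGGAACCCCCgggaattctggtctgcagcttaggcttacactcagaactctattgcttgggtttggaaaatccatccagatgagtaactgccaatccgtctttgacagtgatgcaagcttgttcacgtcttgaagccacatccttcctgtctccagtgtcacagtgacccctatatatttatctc
Il1b, chr2:129371140-129371389, minus strand: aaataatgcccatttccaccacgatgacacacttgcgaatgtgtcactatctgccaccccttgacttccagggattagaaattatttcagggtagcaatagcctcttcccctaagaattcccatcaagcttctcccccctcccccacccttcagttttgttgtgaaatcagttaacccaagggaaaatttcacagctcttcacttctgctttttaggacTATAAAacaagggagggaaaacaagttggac
Il18, chr9:50554450-50554699, plus strand: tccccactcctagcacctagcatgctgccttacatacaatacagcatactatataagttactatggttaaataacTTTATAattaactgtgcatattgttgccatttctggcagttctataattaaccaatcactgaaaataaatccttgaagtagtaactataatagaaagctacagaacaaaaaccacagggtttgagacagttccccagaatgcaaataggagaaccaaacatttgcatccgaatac
Casp4, chr9:5308599-5308827, plus strand: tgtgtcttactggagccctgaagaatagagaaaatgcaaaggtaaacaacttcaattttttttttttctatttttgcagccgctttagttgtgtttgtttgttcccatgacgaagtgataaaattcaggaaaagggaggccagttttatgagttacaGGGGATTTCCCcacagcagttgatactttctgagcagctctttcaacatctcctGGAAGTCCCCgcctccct
The Nlrp3 match begins 186 bases before the first of 2 RefSeq starts, and the window of the second start held none. The first Casp4 match begins 93 bases before 1 RefSeq start of that gene and 104 bases before another. The printed Casp4 sequence stops after 229 bases, where an annotated Casp4 exon begins, and so does not reach either RefSeq start. The TATAAA of Il1b begins 31 bases before the start. Of all mouse promoter windows 8.46% held the NF-kB consensus and 13.6% held TATAAA, and such a match is a run of letters, not a measured binding site. The match of Casp4 stood beside a transcript counted 19 to 29 times per heart, and that of Nlrp3 beside one counted 1 to 11 times.

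Around the 10 genes, 102 others of the same biology were grouped into 8 lists, and 69 of them were tested. Of these 69, 0 were called higher and 1 was called lower, Txnip itself. Their median log2 fold change was −0.03, against −0.0068 over all tested genes. At an unadjusted p under 0.05 there were 7 of 69, against 1274 of all 12777 tested genes, so close to the background share of 9.97%. These were Txnip, P2rx4, Cd14, Nfkbib and Ptgs2, lower in the knock-in hearts, and Il33 and Vcam1, higher. DESeq2 called 2 of 69, Txnip and Vcam1, against 128 of 12777.

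Txnip was counted among 17 regulators of the inflammasome, of which 16 were tested. Among 15 other sensors, 6 were tested and 0 called. Nlrp10, an NLR protein without the ligand-sensing repeats, was the highest of them at 5.53 CPM per kilobase, against 0.109 for Nlrp3, with a log2 fold change of 0.13 ± 0.13 (SE; edgeR adjusted p = 0.816). Nlrx1, a mitochondrial member of the family, averaged 3.41 CPM per kilobase. The DNA sensor Aim2 was counted 10, 13 and 12 times in the knock-in and 8, 11 and 13 times in the wild-type hearts, and its groups overlapped. Nlrc4, which responds to bacterial flagellin through the Naip proteins, had 0 to 7 counts, and Nlrp1a and Nlrp1b had 0 to 3.

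Among other effectors of cell death, 6 of 9 were tested and 0 called. Ninj1, which ruptures the membrane of dying cells, averaged 33.8 CPM per kilobase, above all 10 inflammasome members. Casp12, an inflammatory caspase, had a log2 fold change of −0.25 ± 0.25 (SE; edgeR adjusted p = 0.817). Gsdme, a gasdermin cut by caspase-3, had 8, 5 and 4 counts in the knock-in and 10, 4 and 3 counts in the wild-type hearts, and Gsdmc had 0 in all.

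Of the 16 other ligands, antagonists and receptors of the interleukin-1 family, 4 had enough counts to be tested. Of 8 other ligands and antagonists 1 was tested, Il33, an alarmin of stromal cells. It had 46, 26 and 68 counts in the knock-in hearts, against 19, 25 and 29 counts in the wild-type hearts. The groups overlapped, and the log2 fold change of 0.89 ± 0.36 did not pass (SE; edgeR adjusted p = 0.439; unadjusted p = 0.0315). Il1a had 0 counts in every heart. That allows up to 0.208 CPM in any single library, and less over the 6 hearts together. The receptor antagonist Il1rn had 2, 2 and 0 counts in the knock-in and 4, 2 and 3 counts in the wild-type hearts. Of 8 other receptors 3 were tested and 0 called. Sigirr, an inhibitory member of the receptor family, had 67, 42 and 62 counts in the knock-in and 56, 45 and 42 counts in the wild-type hearts, and at 1.16 CPM per kilobase it lay close to Casp1. Il1rl2, the receptor for the interleukin-36 cytokines, had 19, 8 and 16 counts in the knock-in and 18, 19 and 12 counts in the wild-type hearts. The groups overlapped in both genes. Il1rap, the shared second chain of the receptor, had 38, 37 and 42 counts in the knock-in and 29, 38 and 31 counts in the wild-type hearts (log2 fold change 0.20 ± 0.23 SE, edgeR adjusted p = 0.854). The receptor chains for Il18, Il18r1 and Il18rap, had 0 to 4 counts, so the ligand and both chains were near the floor while the decoy was not.

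Downstream of the receptors, 11 of 11 genes of MyD88 and IRAK signalling and 16 of 16 of NF-kB and Toll-like receptor priming were tested, with 0 called in either. Log2 fold changes of the 11 signalling genes were positive in 5 and negative in 6. Those of the 16 priming genes were positive in 4 and negative in 12, with a median of −0.14. Irak4, the first kinase of the pathway, had a log2 fold change of −0.51 ± 0.24 (SE; edgeR adjusted p = 0.513) and Nfkbib, an inhibitor of NF-kB, one of −0.47 ± 0.16 (SE; edgeR adjusted p = 0.345). Nfkbia, also an inhibitor of NF-kB, went the other way, at 0.69 ± 0.30 (SE; edgeR adjusted p = 0.509). Among 18 inflammatory genes that interleukin-1 is known to induce, 10 were tested and 0 called by edgeR. Vcam1, the endothelial adhesion molecule, came closest, at 20.8, 24.4 and 29.1 CPM in the knock-in hearts, against 16.8, 14.2 and 15.4 CPM in the wild-type hearts. Its groups did not overlap, and the log2 fold change was 0.68 ± 0.15 (SE), with an adjusted p of 0.118 in edgeR and 0.0146 in DESeq2. The summed endothelial markers overlapped, with 500 to 717 CPM in the knock-in and 526 to 714 CPM in the wild-type hearts. Their part in the Vcam1 values was not tested. Il6, Tnf, Ifng, Csf3 and the chemokines Cxcl2 and Cxcl5 had 0 to 4 counts in every heart. Other chemokines were counted more often. Ccl2, which attracts monocytes, had 9, 19 and 6 counts in the knock-in and 17, 16 and 19 counts in the wild-type hearts. Ccl7, a related chemokine, had 2, 19 and 6 counts in the knock-in and 13, 25 and 23 counts in the wild-type hearts. The groups overlapped in both, and their log2 fold changes of −0.66 ± 0.41 and −1.22 ± 0.58 did not pass (SE; edgeR adjusted p = 0.662 and 0.530). Cxcl1, which attracts neutrophils, had 7 to 18 counts in the knock-in and 8 to 19 counts in the wild-type hearts.

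**Figure D4:**
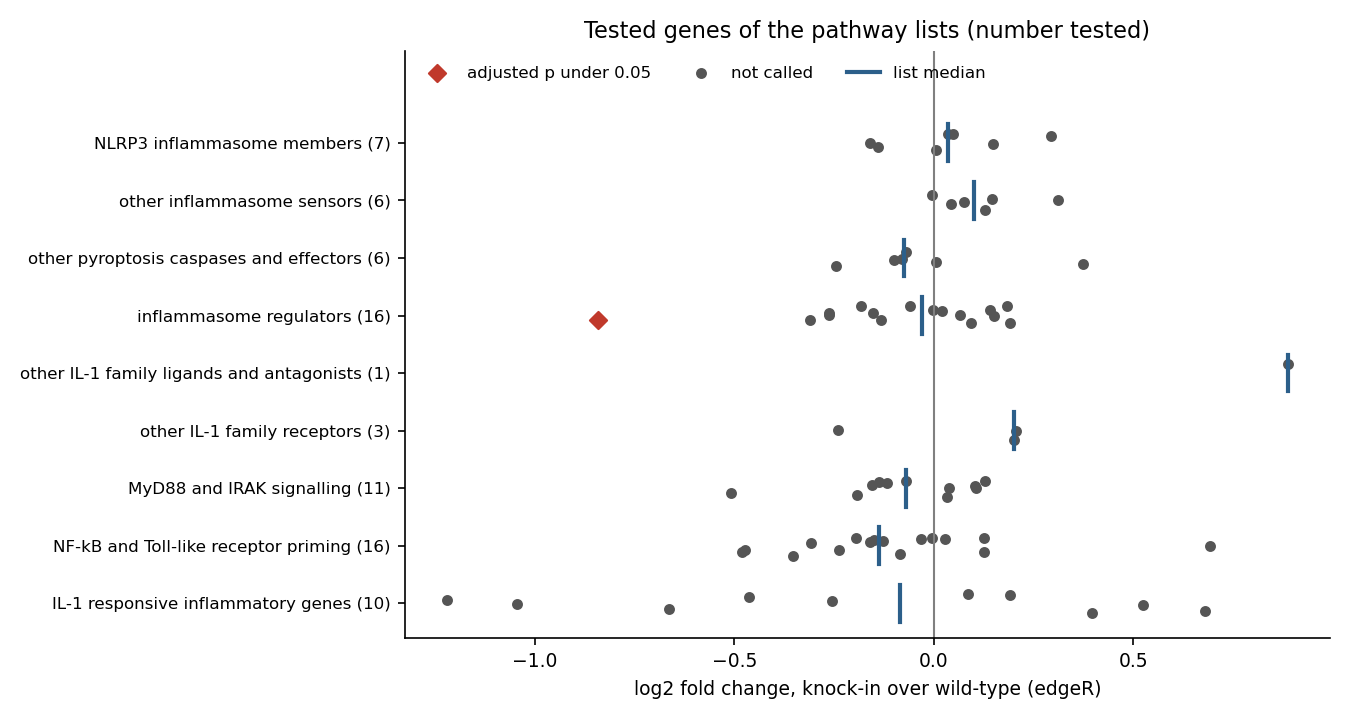
Log2 fold change, knock-in over wild-type, of each tested gene in the 10-gene set and the 8 surrounding lists (number tested in brackets), with list medians as bars. Txnip, the red diamond at −0.84, is the 1 called gene; the single point of the list of other ligands is Il33 at 0.89.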

How the data were processed

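RNA from 6 hearts was isolated on RNeasy columns and made into NEBNext Ultra II libraries, as the labels' protocols state. The authors deposited whole-number read counts per gene, not normalized. Named in the submitters' processing notes, without roles, are GRCm38.p6, STAR, DESeq2, featureCounts and Subread 1.5.2. Strand setting and annotation release: not given in the sources used here. The labels do not say how far the hearts of a genotype were independent, so p-values measure the spread between these samples. Positions and exon lengths came from GENCODE M21 (GRCm38).

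The whole table was fitted in R 4.3.3 with edgeR 4.0.16, using filterByExpr by genotype, TMM factors, robust glmQLFit, glmQLFTest, Benjamini-Hochberg over 12777 genes. The SE is the log2 fold change over the square root of F, and intervals cover 95%. Genes under the filter were given as pooled counts with exact binomial intervals over library totals. These binomial intervals and the floors cover counting error only and leave out the spread between hearts. The intervals of the tested genes come from the edgeR fit and include that spread. Reads carry no molecular identifiers. The code was tested on simulated data. Alternatives were DESeq2 1.42.0, limma-voom 3.58.1, scaling by RLE, by upper quartile or by library size, no low-count filter, a filter at a mean of 1 CPM, no robust estimation, mitochondrial genes left out, each heart left out, and other lengths.

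Members, lists and tests were chosen with earlier results of these data known. Named beside the 10 members were the called gene or else the gene with the smallest p of each list, and the 3 genes most like the most variable member; further list genes were picked with their values in view. All 102 surrounding symbols matched, 5 through RefSeq synonyms. Within a genotype, libraries differed beyond sampling noise, with 7.16 to 27.0 as chi-square over degrees of freedom. Replicate numbers follow accession order.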

Additional observations from a re-analysis of the deposited data

How the results depend on the processing

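Under each of the 15 alternatives that fitted a test, 0 members were called. The median log2 fold change of the 7 tested members ran from −0.0074 to 0.04 under the other scalings, filters and tools, and from −0.09 to 0.15 with a heart left out. Pycard, Il1r1, Nek7 and Il18bp kept their direction under all 15. The sign of Casp1 turned with library-size scaling (−0.0074), and with a heart left out it ran from −0.17 to 0.17. That of Casp4 turned with upper-quartile (−0.000637) and library-size scaling (−0.035) and ran from −0.13 to 0.18 with a heart left out. Gsdmd ran from −0.12 to 0.21 with a heart left out. Adjusted p over these alternatives went down to 0.343, for Il18bp without knock-in replicate 2. The genes called in the surrounding lists were 2 without a filter and with DESeq2, Txnip and Vcam1. With a heart left out they were 0 (without knock-in replicate 3 or wild-type replicate 2, where Txnip was lost) to 2 (without knock-in replicate 2, which added Vcam1). Leaving out a heart gave pooled ratios of 0.255 to 0.577 for Nlrp3, 1.13 to 2.79 for Il18 and 1.18 to 3.08 for Il1b. The lowest ratio of Il1b, 1.18, was that without knock-in replicate 2. Over all genes edgeR called 38, against 317 without a filter, 128 with DESeq2, 18 with limma-voom, and 5 to 174 with a heart left out. The lengths of the longest transcript and of the longest protein-coding transcript, the second chosen after seeing the data, left the order of the 10 members as it was. The cause of these moves was not tested. With 19 to 36 counts per heart, the caspases could be compared to within about 1.6-fold. Nlrp3, Il1b and Il18 had 39, 43 and 14 counts over all 6 hearts. No paired analysis was possible because the labels give no replicate numbers that link hearts of the 2 genotypes.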
